A study of Talinum fruticosum with 24 samples.

Results

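The comparison described here sets drought leaves against re-watered leaves of Talinum at the end of the light period. It rests on 6 of the 24 messenger RNA libraries of the series, 3 from drought plants in the crassulacean acid metabolism mode (CAM) and 3 from re-watered plants back in the C3 mode (reC3), also called drought and re-watered leaves below. The members were taken by column label, as the raw count columns of both modes at a zeitgeber time of 12 h, with earlier results of these data known. The plant is Talinum triangulare in the study's text and Talinum fruticosum in the sample labels, a leaf-succulent herb. All plants were first watered well for 28 days. The CAM plants then went without water for 12 days, and the reC3 plants had the same 12 days of drought followed by 2 days with water. Both groups had therefore been through drought, and no group that never dried out enters the comparison. The CAM mode and lack of water cannot be told apart in it, nor can the return to C3 and the recovery from drought. Leaves were mature, and the 3 samples of each group are biological replicates per the design text. The other 18 libraries hold both modes at the middle of the day (6 h), the middle of the night (18 h) and the end of the night (24 h), again with 3 libraries a group.

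In CAM, stomata open at night, and phosphoenolpyruvate carboxylase (PEPC) joins bicarbonate to phosphoenolpyruvate. The acid made is stored as malate in the vacuole, and by day it is released and decarboxylated behind closed stomata, which feeds the Calvin-Benson cycle. The end of the day is the hour at which the day's malate has been used, starch has been rebuilt and the night's carboxylation is about to begin. Talinum is a facultative CAM plant: it takes up this mode when water runs short and leaves it again when water returns.

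Reads had been assigned by the authors to Arabidopsis gene identifiers, so each value stands for the Talinum transcripts assigned to 1 Arabidopsis gene. Where that plant has several near copies of a gene, how reads were split among them is uncertain. No Talinum genome, gene position or sequence was used here. The 3 CAM libraries held 6953460, 7069076 and 6008515 counts, and the 3 reC3 libraries held 6259256, 6055928 and 4310225 counts. The 10 most abundant genes took 10.1 to 13.5% of the counts in CAM libraries and 6.9 to 9.0% in reC3 libraries. Levels are given as CPM, the count scaled to a common library size after adjustment by the trimmed mean of M values (TMM). The small subunit of Rubisco, which marks green leaf tissue, was abundant in all 6 libraries, with 29053 ± 6342 CPM in drought and 15555 ± 5462 CPM in re-watered leaves for the identifier RBCS1A (± SD, n = 3 libraries each, as for all CPM means below).

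Of 22079 genes in the table, 14065 had enough counts to be tested. At the end of the day 6388 of them differed between the modes (edgeR's quasi-likelihood test, Benjamini-Hochberg adjusted p under 0.05), which is 45.4% of the genes tested. In CAM, 3025 genes were higher (21.5%) and 3363 were lower (23.9%). With library totals in place of TMM scaling, 1766 were higher and 4098 lower, and the median of all genes moved by -0.22 on the log2 scale. Differences below are relative to the TMM scale, on which the median of all genes was 0.02. At least 2-fold differences past the threshold numbered 1256 higher (8.93%) and 1988 lower (14.1%). A fold change is log2 of CAM over reC3 with its standard error, and the p-values are adjusted over all genes tested.

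**Figure D1:**
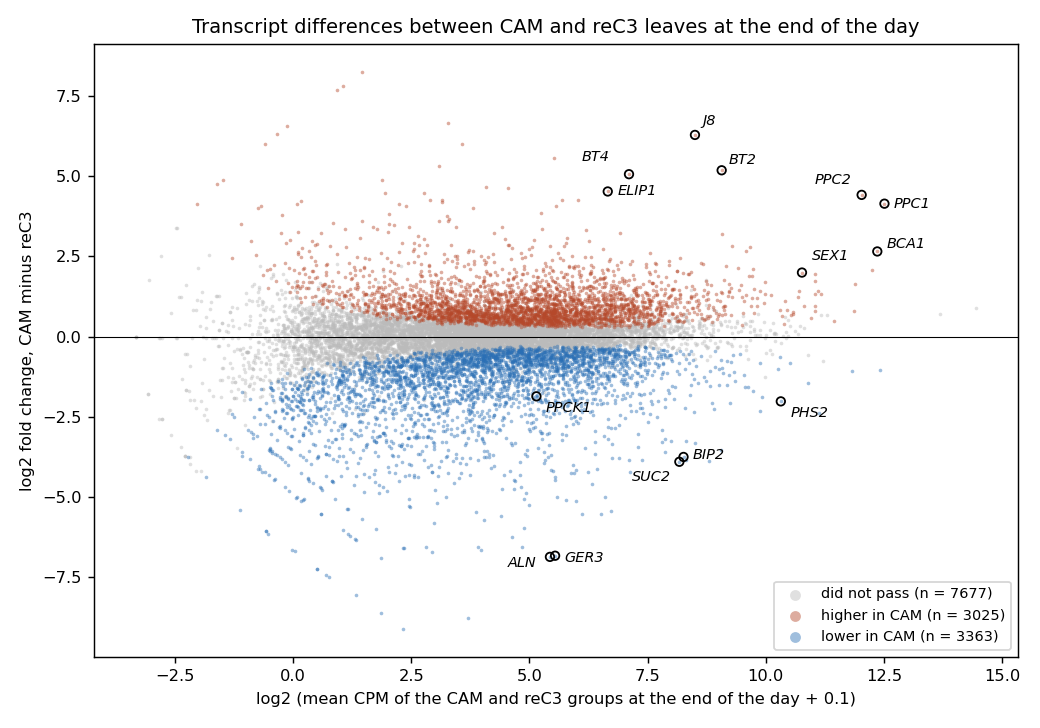
Each point is 1 of 14065 genes tested at the end of the day, with its mean level in the CAM and reC3 groups (log2 of CPM + 0.1) on the x axis and the log2 fold change of CAM minus reC3 on the y axis. The 3025 genes higher in CAM and the 3363 lower in CAM are coloured, and 14 genes are circled. PPC1 and PPC2 stand at the upper right, with fold changes of 4.14 and 4.42.

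J8, a DnaJ-domain chaperone of the chloroplast, was among the 12 largest rises by the naming rule, which takes genes whose CAM and reC3 libraries do not overlap and whose higher group averages 10 CPM or more. That the libraries of these genes do not overlap is therefore a part of the rule, and they did not overlap for 58.7% of all genes tested. J8 had 659.7, 739 and 747 CPM in the CAM libraries, against 6.01, 12.6 and 8.83 CPM in the reC3 libraries (log2 fold change 6.28 ± 0.31, edgeR adjusted p = 1.57e-11). OXS3, named for oxidative stress 3 and known from Arabidopsis as a nuclear stress tolerance factor, had 88.4, 121 and 60.4 CPM in CAM, against 1.92, 2.32 and 1.31 CPM in reC3 (log2 fold change 5.56 ± 0.53, edgeR adjusted p = 1.06e-07). BT2 and BT4, scaffold proteins with BTB and TAZ domains, were both far higher in drought leaves. BT2 had 976, 1564 and 588 CPM in CAM, against 38.4, 27.9 and 19.6 CPM in reC3 (log2 fold change 5.18 ± 0.48, edgeR adjusted p = 5.26e-08). BT4 had 288, 371 and 143 CPM in CAM, against 6.01, 7.29 and 11 CPM in reC3 (log2 fold change 5.06 ± 0.31, edgeR adjusted p = 3.07e-10). MLS, malate synthase of the glyoxylate cycle, had 15.7, 12.2 and 10.6 CPM in CAM, against 0.722, 0.347 and 0.654 CPM in reC3 (log2 fold change 4.46 ± 0.65, edgeR adjusted p = 1.50e-05).

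ELIP1, an early light-induced protein that protects chloroplasts under strong light, had 37, 40.4 and 502 CPM in CAM, against 7.1, 7.29 and 11 CPM in reC3. Drought replicate 3 stood far above its partners, and without it the log2 fold change was 2.21 in place of 4.52 ± 0.88. In a fit of the 6 end-of-day libraries alone ELIP1 did not pass (edgeR adjusted p = 0.0600, against 3.63e-04 with all 24 libraries). The other large rises were GEX3, a membrane protein named from gametes, at 32.5 ± 1.5 CPM in drought and 1.25 ± 0.128 CPM in re-watered leaves, AT1G54070, of a dormancy- and auxin-associated family, at 19.1 ± 12.2 CPM in drought and 0.172 ± 0.0561 CPM in re-watered leaves, and AT4G10270, of a wound-responsive family, at 44.6 ± 13.6 CPM in drought and 1.86 ± 1.53 CPM in re-watered leaves. AT3G03170, which carries no description in the deposited table, had 23.3 ± 8.74 CPM in drought and 0.372 ± 0.336 CPM in re-watered leaves. AT3G06070, also without description, had 16.3 ± 6.39 CPM in drought and 0.401 ± 0.147 CPM in re-watered leaves. The log2 fold change of AT1G54070 was 6.65, above that of J8 (edgeR adjusted p = 8.54e-06). The log2 fold change of AT4G10270 was 4.64, and 5.23 without reC3 replicate 3. For AT3G03170 it was 6.0, and 5.38 without reC3 replicate 1. PPC2 was also among the 12 largest rises and is described with the carboxylation genes.

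Genes of the cell wall and cell surface were 5 of the 12 largest falls. Germin-like proteins GER3 and GER1, of the apoplast, were close to 0 in drought leaves. GER3 had 1.01, 0.713 and 0.671 CPM in CAM, against 179, 47.3 and 50.2 CPM in reC3 (log2 fold change -6.82 ± 1.28, edgeR adjusted p = 2.57e-04). GER1 had 0.126, 0.238 and 0.537 CPM in CAM, against 66, 13.4 and 13.4 CPM in reC3 (log2 fold change -6.64 ± 1.45, edgeR adjusted p = 0.00103). For both genes the 3 re-watered leaves differed widely among themselves, and without reC3 replicate 1 the values were -5.90 for GER3 and -5.42 for GER1. AT1G67750, a pectate lyase, had 0.606 ± 0.524 CPM in drought and 56.7 ± 14.7 CPM in re-watered leaves. AT4G24780, a pectin lyase-like protein, had 0.616 ± 0.678 CPM in drought and 32.1 ± 7.22 CPM in re-watered leaves. AT3G47380, of the pectin methylesterase inhibitor family, had 0.258 ± 0.269 CPM in drought and 15.3 ± 5.77 CPM in re-watered leaves. These 3 proteins belong to families that act on pectin, and their log2 fold changes were -6.55, -5.72 and -5.82.

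ALN, allantoinase, which opens the ring of the purine product allantoin, had 0.379, 0.357 and 1.48 CPM in CAM, against 73.1, 73.3 and 110.2 CPM in reC3 (log2 fold change -6.86 ± 1.23, edgeR adjusted p = 1.73e-04). PHT4;2, a plastid phosphate transporter, had 1.26, 0.475 and 1.07 CPM in CAM, against 57.8, 65.9 and 50.8 CPM in reC3 (log2 fold change -5.95 ± 0.40, edgeR adjusted p = 1.45e-09). BGLU2, a beta-glucosidase, had 0.308 ± 0.435 CPM in drought and 29.4 ± 6.09 CPM in re-watered leaves. BAN, annotated with a Rossmann fold and known as anthocyanidin reductase in Arabidopsis, had 0.637 ± 0.458 CPM in drought and 49.1 ± 43 CPM in re-watered leaves. For 3 further genes the drought leaves held 1 to 3 counts in all, so a counting ratio of reC3 over CAM stands in place of a fitted value. HSFB1, a heat shock factor of class B, had 3 counts in CAM against 300 in reC3, a ratio of 103 (95% counting interval 34.9 to 503). AT5G62330 had 3 counts in CAM against 338 in reC3, a ratio of 116 (39.4 to 566). AT2G25625 had 1 count in CAM against 580 in reC3, a ratio of 598 (107 to 23653). Drought replicate 3 held the highest drought level of several genes in the set of falls. Without it the log2 fold changes were -7.79 for ALN, -7.45 for AT1G67750, -6.77 for AT3G47380, -8.54 for BGLU2 and -6.93 for AT4G24780, and AT4G24780 was at -5.11 without CAM replicate 2. BAN was at -6.23 with all libraries, at -6.94 without CAM replicate 1 and at -5.22 without reC3 replicate 3.

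The genes of primary carboxylation, the first step of the CAM carbon cycle, were far higher in drought leaves. PPC1 and PPC2 encode plant-type PEPC, which carries out the night's carbon fixation. PPC1 had 11423, 11400.5 and 10270.3 CPM in the CAM libraries, against 624, 730.3 and 519 CPM in the reC3 libraries (log2 fold change 4.14 ± 0.39, edgeR adjusted p = 4.10e-08). PPC2 had 8461, 8210.4 and 7239 CPM in CAM, against 363, 442 and 315 CPM in reC3 (log2 fold change 4.42 ± 0.39, edgeR adjusted p = 2.15e-08). The lowest drought leaf was far above the highest re-watered leaf for both identifiers. Their ratio of CPM, not corrected for length, lay between 1.35 and 1.72 in the 6 libraries. Carbonic anhydrases BCA1 and BCA3, which make the bicarbonate that PEPC uses, rose as well. BCA1 had 12109.7, 10819 and 4241 CPM in CAM, against 2918, 835 and 562 CPM in reC3 (log2 fold change 2.65 ± 0.60, edgeR adjusted p = 0.00123). BCA3 had 1846, 1705 and 709 CPM in CAM, against 398, 132 and 85.7 CPM in reC3 (log2 fold change 2.79 ± 0.55, edgeR adjusted p = 3.26e-04). CAM replicate 3 was the lowest drought leaf and reC3 replicate 1 the highest re-watered leaf for both, and without reC3 replicate 1 the fold changes were 3.70 for BCA1 and 3.71 for BCA3. BCA5, another carbonic anhydrase, was lower in drought leaves, at 28.9 ± 6.69 CPM in drought and 46.6 ± 3.86 CPM in re-watered leaves (log2 fold change -0.69 ± 0.24, edgeR adjusted p = 0.0255), and lost its call without either of CAM replicates 1 and 2 or reC3 replicates 2 and 3.

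The kinases that phosphorylate PEPC, PPCK1 and PPCK2, went the other way from PEPC at this hour. They make the enzyme less sensitive to its inhibitor malate, and their transcripts are known to follow the time of day in CAM plants. PPCK1 had 24.9, 10.9 and 10.1 CPM in the CAM libraries, against 68.4, 58.7 and 39.1 CPM in the reC3 libraries (log2 fold change -1.86 ± 0.34, edgeR adjusted p = 1.71e-04). PPCK2 had 5.18, 3.57 and 3.09 CPM in CAM, against 19.4, 19.1 and 8.5 CPM in reC3 (log2 fold change -2.0 ± 0.32, edgeR adjusted p = 3.08e-05). No drought leaf reached the lowest re-watered leaf for either kinase. Pyruvate orthophosphate dikinase (PPDK), which returns pyruvate to phosphoenolpyruvate by day, had 535, 350.5 and 987 CPM in CAM, against 209, 509 and 366 CPM in reC3 and did not pass the test (log2 fold change 0.79 ± 0.55, edgeR adjusted p = 0.251). It is not among the genes named by rule and was chosen after its values were seen. Its regulatory proteins RP1 and RP2, which switch PPDK off and on by phosphorylation, were higher in drought leaves, RP1 at 53.9 ± 5.63 CPM in drought and 25.6 ± 4.2 CPM in re-watered leaves and RP2 at 26.1 ± 2.06 CPM in drought and 10.5 ± 0.944 CPM in re-watered leaves (log2 fold changes 1.08 ± 0.15 and 1.32 ± 0.18, edgeR adjusted p = 4.36e-06 and 3.99e-06).

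**Figure D2:**
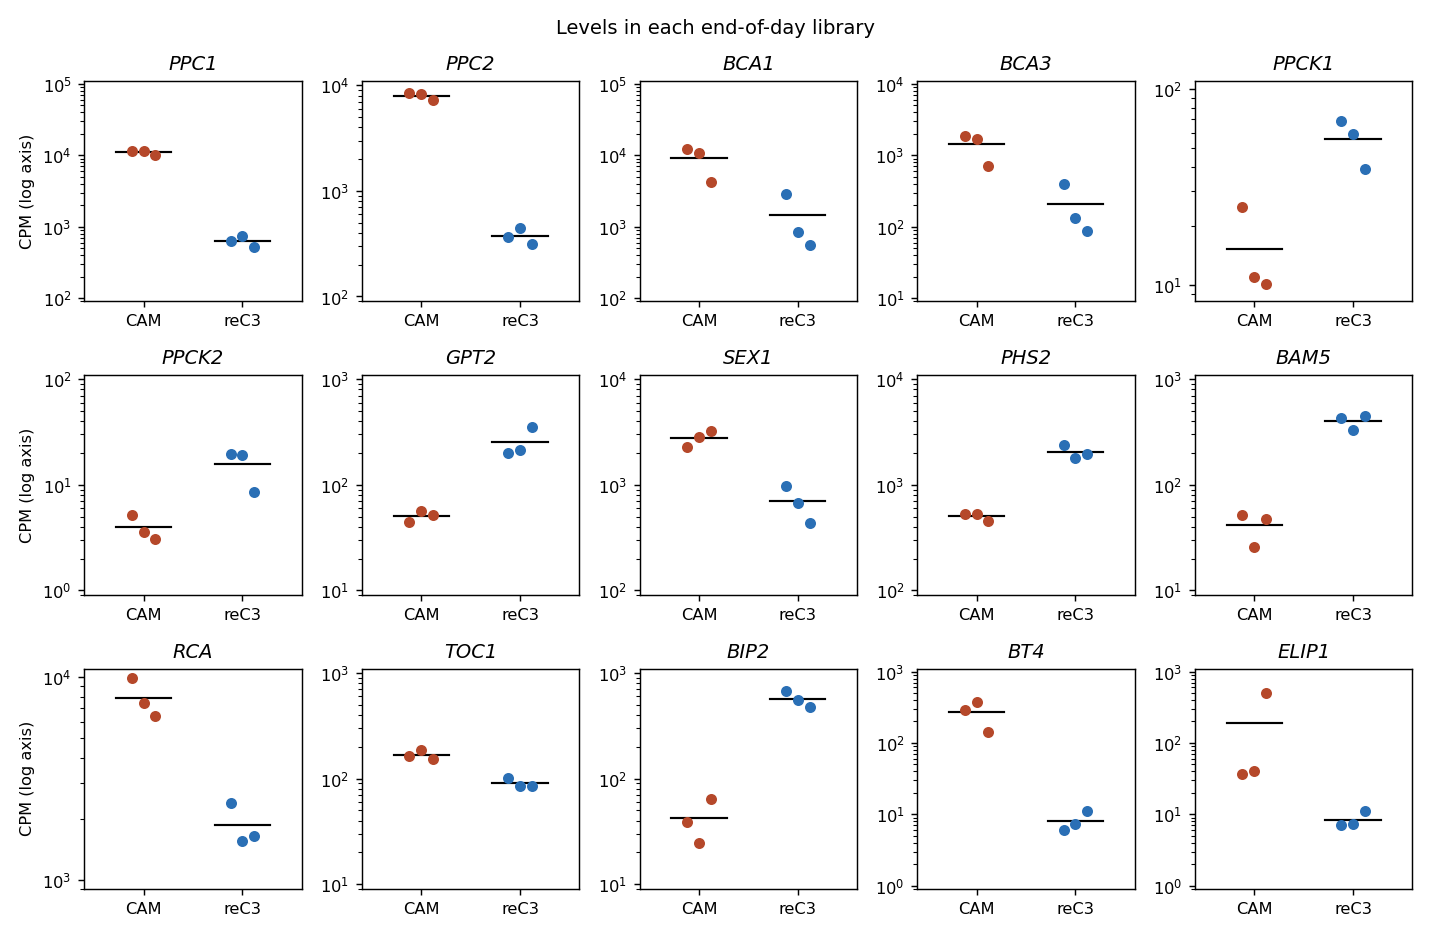
Levels in CPM (log axes) of 15 genes in each of the 3 CAM and 3 reC3 libraries at the end of the day, 1 point a library with a line at the group mean. PPC1, PPC2, BCA1, BCA3, SEX1, RCA, TOC1, BT4 and ELIP1 lie higher in all 3 CAM libraries, and PPCK1, PPCK2, GPT2, PHS2, BAM5 and BIP2 lie lower in all 3.

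Among genes of malate transport, a vacuolar carrier was higher and mitochondrial carriers were lower by large factors. TDT, the tonoplast dicarboxylate transporter, had 130 counts in drought leaves and 0 in re-watered leaves, which makes it at least 42.0-fold higher against a floor of 3 counts over the group. Its levels were 6.82, 8.08 and 1.07 CPM in CAM, against 0, 0 and 0 CPM in reC3. The vacuolar malate channels ALMT4 and ALMT6 were modestly higher, at 18.9 ± 1.83 CPM in drought and 12 ± 0.88 CPM in re-watered leaves for ALMT4 and 19.1 ± 2.97 CPM in drought and 12.2 ± 0.944 CPM in re-watered leaves for ALMT6 (log2 fold changes 0.65 ± 0.19 and 0.65 ± 0.15, edgeR adjusted p = 0.00715 and 0.0012). Both calls were lost with library totals in place of TMM. Mitochondrial dicarboxylate carriers fell: DIC1 had 3.28, 1.78 and 3.62 CPM in CAM, against 23.5, 19.9 and 8.99 CPM in reC3 (log2 fold change -2.61 ± 0.43, edgeR adjusted p = 5.12e-05). DIC2 had 3.03, 2.02 and 3.36 CPM in CAM, against 26.7, 29.7 and 8.66 CPM in reC3 (log2 fold change -2.97 ± 0.46, edgeR adjusted p = 3.35e-05). The highest CAM library lay below the lowest reC3 library for DIC1 and DIC2.

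Among decarboxylating enzymes, the cytosolic malic enzyme NADP-ME2 had 120.00 ± 6.24 CPM in drought and 83.2 ± 11.9 CPM in re-watered leaves, and the plastid malic enzyme NADP-ME4 had 235 ± 29.3 CPM in drought and 145 ± 25.1 CPM in re-watered leaves. Their log2 fold changes were 0.53 ± 0.21 and 0.69 ± 0.21 (edgeR adjusted p = 0.045 and 0.0101). The call of NADP-ME2 was lost when any 1 of the 6 libraries was left out, that of NADP-ME4 without reC3 replicate 1, and both with library totals alone. A subunit of the mitochondrial malic enzyme, NAD-ME2, was slightly lower, at 154 ± 10.7 CPM in drought and 198 ± 22 CPM in re-watered leaves (log2 fold change -0.36 ± 0.13, edgeR adjusted p = 0.0237), and lost its call without CAM replicate 1 or 2 or reC3 replicate 1 or 2. Malate dehydrogenases, which interconvert malate and oxaloacetate, went in both directions. Chloroplast NADP-MDH was at 359 ± 37.3 CPM in drought and 254 ± 17.603 CPM in re-watered leaves and cytosolic c-NAD-MDH1 at 122 ± 6.83 CPM in drought and 179 ± 15.5 CPM in re-watered leaves, with log2 fold changes of 0.50 ± 0.17 and -0.55 ± 0.16 (edgeR adjusted p = 0.023 and 0.00822). The NADP-MDH call was lost without CAM replicate 1, reC3 replicate 1 or reC3 replicate 2, and with library totals alone.

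GPT1 and GPT2, which carry glucose 6-phosphate across the plastid envelope, fell. GPT1 had 67.7, 81.3 and 80.8 CPM in CAM, against 251, 269 and 399 CPM in reC3 (log2 fold change -2.0 ± 0.48, edgeR adjusted p = 0.00206). GPT2 had 44.5, 56.2 and 52.1 CPM in CAM, against 199, 215 and 351 CPM in reC3 (log2 fold change -2.32 ± 0.50, edgeR adjusted p = 9.16e-04). All 3 re-watered leaves were above all 3 drought leaves for both translocators. Of the 44 genes listed for the CAM carbon cycle 36 were tested, and 11 were higher and 9 lower in CAM, with a median of 0.31 (6 higher and 12 lower with library totals alone). In this and each other gene list the median was the same with genes of 3 or fewer counts in a group set at their bound or counting ratio. The shares of higher and lower genes in the CAM carbon cycle, 30.6% and 25%, stand beside 21.5% and 23.9% of all genes tested. Of 12 tested genes of cytosolic glycolysis, the path that makes phosphoenolpyruvate, 3 were higher (25%) and 1 lower (8.33%). The phosphoglycerate mutases iPGAM1 and iPGAM2 had log2 fold changes of 0.72 ± 0.19 and 0.78 ± 0.22, the aldolase FBA6 had 0.73 ± 0.14 and the enolase ENO2 had -0.74 ± 0.21 (edgeR adjusted p = 0.00313, 0.00564, 1.55e-04 and 0.00627).

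Starch synthesis genes went in both directions. The plastid enzymes that feed it fell: PGI1, phosphoglucose isomerase, had 26.2, 28.9 and 24.7 CPM in CAM, against 176, 113 and 112 CPM in reC3 (log2 fold change -2.33 ± 0.25, edgeR adjusted p = 1.98e-07). PGM1, phosphoglucomutase, had 64.1, 67.7 and 51 CPM in CAM, against 248, 188 and 224 CPM in reC3 (log2 fold change -1.85 ± 0.20, edgeR adjusted p = 1.91e-07). In both cases the groups were well apart. Subunits of ADP-glucose pyrophosphorylase, which makes the glucosyl donor, went in both directions. The small subunit APS1 was at 614 ± 39 CPM in drought and 323 ± 26.4 CPM in re-watered leaves and the large subunit APL1 at 342 ± 9.8 CPM in drought and 178 ± 36.2 CPM in re-watered leaves, both higher in CAM (log2 fold changes 0.93 ± 0.15 and 0.94 ± 0.23, edgeR adjusted p = 3.89e-05 and 0.00223). The large subunits APL2, at 242 ± 52.5 CPM in drought and 583 ± 65.4 CPM in re-watered leaves, and APL4, at 362 ± 113 CPM in drought and 825 ± 87.1 CPM in re-watered leaves, were lower (log2 fold changes -1.27 ± 0.25 and -1.19 ± 0.36, edgeR adjusted p = 3.08e-04 and 0.0104), and APL4 lost its call without CAM replicate 1. Starch synthases SS2 and SS3 were lower, with log2 fold changes of -1.12 ± 0.20 and -0.96 ± 0.20, and SS4, which initiates granules, was higher, with 0.52 ± 0.13 (edgeR adjusted p = 1.03e-04, 5.71e-04 and 0.00333). The SS4 call was lost with library totals alone. Of 16 tested genes of starch synthesis, 3 were higher (18.8%) and 6 lower (37.5%), with a median of -0.25, beside 21.5% and 23.9% of all genes tested.

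Starch breakdown genes went in both directions as well. SEX1, the glucan water dikinase that starts nightly breakdown by phosphorylating the granule, was the member with the largest rise. It had 2299, 2835 and 3211 CPM in the CAM libraries, against 981, 676 and 434 CPM in the reC3 libraries (log2 fold change 2.0 ± 0.23, edgeR adjusted p = 6.65e-07). PWD, the dikinase that acts after it, was lower, at 812 ± 37.9 CPM in drought and 1620.5 ± 180.2 CPM in re-watered leaves (log2 fold change -1.0 ± 0.29, edgeR adjusted p = 0.00712). AMY3, the plastid alpha-amylase, had 602, 659.97 and 588 CPM in CAM, against 272, 265 and 206 CPM in reC3 (log2 fold change 1.32 ± 0.22, edgeR adjusted p = 6.54e-05). The debranching enzyme LDA and the disproportionating enzyme DPE1, both of the plastid, were higher, with log2 fold changes of 1.16 ± 0.22 and 0.83 ± 0.22 (edgeR adjusted p = 1.80e-04 and 0.00438). The debranching isoamylase ISA3 was lower, with -0.79 ± 0.22 (edgeR adjusted p = 0.00588).

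Beta-amylases, which release maltose, were lower where they changed. BAM5 had 51.4, 25.8 and 47.2 CPM in CAM, against 428, 333 and 451 CPM in reC3 (log2 fold change -3.28 ± 0.63, edgeR adjusted p = 3.05e-04). BAM6 had 57.4, 32.1 and 56 CPM in CAM, against 503, 357 and 525 CPM in reC3 (log2 fold change -3.25 ± 0.61, edgeR adjusted p = 2.81e-04). Reads on BAM5 and BAM6 stayed in a ratio of 1.07 to 1.24 over the 6 libraries, and drought leaves were low for both. BAM2 was at 39.6 ± 3.5 CPM in drought and 109 ± 10.2 CPM in re-watered leaves and BAM3 at 81.1 ± 30.9 CPM in drought and 192 ± 30.3 CPM in re-watered leaves (log2 fold changes -1.46 ± 0.19 and -1.25 ± 0.47, edgeR adjusted p = 2.34e-06 and 0.0349). The BAM3 call was kept only without CAM replicate 3 among the 6 fits that left out a library. BAM9, a regulatory protein without amylase activity in Arabidopsis, did not pass at this hour, at 45 ± 2.36 CPM in drought and 49 ± 3.75 CPM in re-watered leaves with overlapping libraries (log2 fold change -0.12 ± 0.16, edgeR adjusted p = 0.545). In the cytosol, the glucan phosphorylase PHS2 had 532, 532 and 454 CPM in CAM, against 2379, 1801 and 1955 CPM in reC3 (log2 fold change -2.02 ± 0.33, edgeR adjusted p = 4.07e-05), and the maltose-using DPE2 had 316 ± 19.7 CPM in drought and 478 ± 63.1 CPM in re-watered leaves (log2 fold change -0.60 ± 0.16, edgeR adjusted p = 0.00515). Of 23 tested genes of starch breakdown, 4 were higher and 8 lower, with a median of -0.29. The share of higher genes was below the 21.5% of all genes tested, and that of lower genes was above the 23.9%.

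Of 19 tested sucrose genes 5 were higher (26.3%) and 5 lower (26.3%), with a median of -0.15. These shares are near the 21.5% and 23.9% of all genes tested. The phloem loader SUC2 had 34, 36.7 and 38 CPM in the CAM libraries, against 356, 323 and 941 CPM in the reC3 libraries (log2 fold change -3.9 ± 0.61, edgeR adjusted p = 4.39e-05), and -3.23 without reC3 replicate 3. SUC4, a sucrose carrier of the vacuole, had 2.23 ± 0.509 CPM in drought and 8.43 ± 3.19 CPM in re-watered leaves, and VGT1, a vacuolar glucose transporter, had 20.3 ± 3.02 CPM in drought and 43.9 ± 6.78 CPM in re-watered leaves (log2 fold changes -1.89 ± 0.30 and -1.11 ± 0.23, edgeR adjusted p = 3.17e-05 and 4.11e-04). SWEET11, a sucrose exporter of the leaf, was higher at 50.2 ± 2.16 CPM in drought and 22.5 ± 3.38 CPM in re-watered leaves (log2 fold change 1.15 ± 0.21, edgeR adjusted p = 1.33e-04). With library totals alone 3 members were higher. SUC2 also marks companion cells, and in whole leaves fewer cells of a type and less RNA per cell cannot be told apart. The 14 tested markers of vascular tissue had 0 higher and 9 lower, with a summed level of 309 to 401 CPM in CAM against 801 to 1417 CPM in reC3, a sum in which SUC2 itself counts. The part of tissue make-up in the SUC2 result was not tested.

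Genes for protective sugars and proline gave 9 of 23 tested higher (39.1%) and 6 lower (26.1%), with a median of 0.50. Of all genes tested 21.5% were higher and 23.9% lower. TPS9 and TPS10, class II trehalose phosphate synthase proteins, were higher. TPS9 had 137, 159.97 and 138 CPM in CAM, against 45, 44.2 and 36.5 CPM in reC3 (log2 fold change 1.79 ± 0.22, edgeR adjusted p = 1.31e-06). TPS10 had 123, 165 and 127 CPM in CAM, against 39.6, 39.6 and 40.9 CPM in reC3 (log2 fold change 1.79 ± 0.21, edgeR adjusted p = 6.66e-07). TPS5 of the same class was lower, at 27.9 ± 4.23 CPM in drought and 106 ± 15.6 CPM in re-watered leaves, as was trehalase TRE1, at 41 ± 3.76 CPM in drought and 119 ± 10.5 CPM in re-watered leaves (log2 fold changes -1.92 ± 0.22 and -1.53 ± 0.15, edgeR adjusted p = 5.88e-07 and 4.98e-08). Galactinol synthases, which supply the raffinose pathway, and proline dehydrogenases, which break proline down, are not among the named genes and were chosen after their values were seen. GolS1 was at 137 ± 14.2 CPM in drought and 56.8 ± 1.82 CPM in re-watered leaves, and GolS3 was at 232 ± 6.77 CPM in drought and 79.7 ± 8.44 CPM in re-watered leaves (log2 fold changes 1.27 ± 0.37 and 1.54 ± 0.44, edgeR adjusted p = 0.00941 and 0.00749). ProDH1 had 1.77, 0.951 and 6.84 CPM in CAM, against 17.2, 22.6 and 39.9 CPM in reC3 (log2 fold change -3.07 ± 0.67, edgeR adjusted p = 0.00106). ProDH2 had 2.27, 1.19 and 4.56 CPM in CAM, against 21.6, 28.9 and 53.1 CPM in reC3 (log2 fold change -3.7 ± 0.65, edgeR adjusted p = 1.26e-04). The count of higher members was 5 without reC3 replicate 1 and 3 with library totals alone.

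Abscisic acid (ABA), the hormone of water shortage, is read by PYR/PYL receptors and cleared by CYP707A hydroxylases. The receptors PYL9 and PYR1 fell. PYL9 had 104, 93.2 and 101 CPM in CAM, against 216, 237 and 246 CPM in reC3 (log2 fold change -1.23 ± 0.16, edgeR adjusted p = 2.41e-06). PYR1 had 0.253, 0.475 and 0.805 CPM in CAM, against 4.09, 3.24 and 5.56 CPM in reC3 (log2 fold change -3.02 ± 0.39, edgeR adjusted p = 2.33e-06). Re-watered leaves were the higher group in each case. CYP707A2 was lower, at 1.25 ± 0.176 CPM in drought and 11.3 ± 1.06 CPM in re-watered leaves (log2 fold change -3.14 ± 0.27, edgeR adjusted p = 1.25e-08). EDL3, an F-box protein induced by ABA in Arabidopsis, had 22.4, 14.9 and 15.8 CPM in CAM, against 1.2, 3.94 and 2.12 CPM in reC3 (log2 fold change 2.84 ± 0.37, edgeR adjusted p = 2.83e-06), and 3.44 without reC3 replicate 2. Of 28 tested genes, 5 were higher (17.9%) and 5 lower (17.9%), with a median of 0.03, beside 21.5% and 23.9% of all genes tested. The 5 higher members were 2 without CAM replicate 1, 3 without reC3 replicate 1 or reC3 replicate 3, 3 with no filter on low counts or in the 6 libraries alone and 2 with library totals alone.

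Of 10 tested classical dehydration genes 3 were higher (30%) and 3 lower (30%), beside 21.5% and 23.9% of all genes tested. Aquaporins were mostly lower. The homeobox factor HB7 had 175, 127 and 144 CPM in CAM, against 29.9, 59.8 and 49.7 CPM in reC3 (log2 fold change 1.68 ± 0.45, edgeR adjusted p = 0.00506). RD22 was named for its response to drying and had 12.6, 8.32 and 34.4 CPM in CAM, against 99, 122 and 92.5 CPM in reC3 (log2 fold change -2.51 ± 0.46, edgeR adjusted p = 1.92e-04), and -3.32 without CAM replicate 3. The 3 drought leaves were all above the re-watered leaves for HB7 and all below them for RD22. LEA14 was at 0.935 ± 0.366 CPM in drought and 2.95 ± 0.0617 CPM in re-watered leaves and ERD7 at 22.6 ± 5.82 CPM in drought and 12 ± 1.72 CPM in re-watered leaves (log2 fold changes -1.65 ± 0.42 and 0.91 ± 0.24, edgeR adjusted p = 0.0029 and 0.0039), and ERD7 lost its call with library totals alone. With library totals alone 1 of the 10 was higher and 3 were lower. LTI30 and KIN1, which mark dehydration in Arabidopsis, had no count in any of the 6 libraries.

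Aquaporins conduct water across the plasma membrane (PIP) and the tonoplast (TIP). Of 12 tested, 3 were higher (25%, near the 21.5% of all genes tested) and 8 lower (66.7%, beside 23.9%), with a median of -1.44. PIP1;3 had 324, 283 and 297 CPM in CAM, against 811, 879 and 878 CPM in reC3 (log2 fold change -1.51 ± 0.22, edgeR adjusted p = 8.54e-06). PIP1;5 had 406, 333 and 394 CPM in CAM, against 1097, 1105 and 1161 CPM in reC3 (log2 fold change -1.57 ± 0.19, edgeR adjusted p = 1.20e-06). TIP4;1 had 0.758, 0.594 and 2.55 CPM in CAM, against 12.4, 16.6 and 23 CPM in reC3 (log2 fold change -3.74 ± 0.41, edgeR adjusted p = 3.69e-07), and -4.64 without CAM replicate 3. Re-watered leaves were higher for all 3. PIP1;2 was at 144 ± 12.7 CPM in drought and 279 ± 6.09 CPM in re-watered leaves (log2 fold change -0.95 ± 0.17, edgeR adjusted p = 1.07e-04). The 3 higher aquaporins, PIP2;2, PIP2;6 and PIP2;8, had log2 fold changes of 0.88 ± 0.34, 1.02 ± 0.27 and 0.74 ± 0.28 (edgeR adjusted p = 0.0398, 0.00445 and 0.034) and were chosen after their values were seen. The count of lower aquaporins was 4 without CAM replicate 2 or reC3 replicate 1 and 5 without CAM replicate 3, and that of higher ones was 1 or 2 in the fits that left out a library.

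Clock genes were mostly higher in drought leaves where they changed. The plant clock runs from morning factors (CCA1, LHY, RVE) through the PRR proteins to TOC1 and the evening complex of ELF3, ELF4 and LUX. TOC1 had 162, 187 and 153 CPM in the CAM libraries, against 100.2, 84.7 and 84.7 CPM in the reC3 libraries (log2 fold change 0.90 ± 0.13, edgeR adjusted p = 7.55e-06). FKF1, a blue-light F-box protein of the late day, had 264, 314 and 233 CPM in CAM, against 170.1, 132 and 127 CPM in reC3 (log2 fold change 0.92 ± 0.19, edgeR adjusted p = 6.06e-04). LNK1, a light-regulated coactivator, had 36.5, 37 and 30.5 CPM in CAM, against 10.8, 14.4 and 8.66 CPM in reC3 (log2 fold change 1.61 ± 0.31, edgeR adjusted p = 3.03e-04). Every drought leaf was above every re-watered leaf in these 3 cases. Within the evening complex the members diverged. ELF3 was at 68.6 ± 12.9 CPM in drought and 39.3 ± 8.33 CPM in re-watered leaves and LUX at 26.6 ± 5.49 CPM in drought and 14.7 ± 2.88 CPM in re-watered leaves, both higher (log2 fold changes 0.80 ± 0.18 and 0.85 ± 0.21, edgeR adjusted p = 0.00123 and 0.00197). ELF4 had 8.21, 7.96 and 10.5 CPM in CAM, against 30.4, 30.3 and 32.2 CPM in reC3 (log2 fold change -1.8 ± 0.28, edgeR adjusted p = 1.89e-05) and was the 1 clock gene that fell.

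Smaller rises were found for PRR5, PRR7, ZTL, LKP2, RVE6, CDF2 and CDF3, with log2 fold changes of 0.91, 0.80, 0.40, 0.67, 0.50, 0.54 and 0.62. All 7 calls were lost with library totals alone, and those of PRR5 and LKP2 without reC3 replicate 2, of RVE6 without CAM replicate 3 or reC3 replicate 1, of CDF2 without CAM replicates 1 or 2 or reC3 replicates 2 or 3, and of CDF3 without CAM replicates 1 or 3 or reC3 replicate 3. The calls of CDF2 and CDF3 were also lost in the 6 libraries alone (edgeR adjusted p = 0.133 and 0.104), and that of CDF2 in DESeq2 (adjusted p = 0.0763). Of 25 clock genes tested 12 were higher and 1 lower, with a median of 0.54, and 5 were higher and 2 lower with library totals alone. The morning genes CCA1 and LHY, chosen after their values were seen, were low in both modes, at 0.712 ± 0.106 CPM in drought and 0.667 ± 0.183 CPM in re-watered leaves for CCA1 and 2.98 ± 0.431 CPM in drought and 1.96 ± 0.342 CPM in re-watered leaves for LHY.

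Among light receptors and B-box factors, 14 of 26 tested were higher and 0 lower, with a median of 0.66. On the lower side edgeR had 0 at an unadjusted p under 0.05, and DESeq2 called 0. Phytochrome A (PHYA), the far-red receptor, had 194, 205 and 186 CPM in CAM, against 98.9, 96.7 and 103 CPM in reC3 (log2 fold change 0.97 ± 0.13, edgeR adjusted p = 2.41e-06). HYH, a bZIP factor related to HY5 that acts in light responses, had 19.6, 26.4 and 36 CPM in CAM, against 4.33, 5.9 and 6.87 CPM in reC3 (log2 fold change 2.27 ± 0.23, edgeR adjusted p = 8.43e-08). B-box proteins BBX20 and BBX21, which act with HY5 in Arabidopsis, were higher too. BBX20 had 20, 22.5 and 28.3 CPM in CAM, against 4.93, 4.28 and 4.58 CPM in reC3 (log2 fold change 2.35 ± 0.34, edgeR adjusted p = 8.16e-06). BBX21 had 16.5 ± 0.565 CPM in drought and 4.47 ± 0.859 CPM in re-watered leaves (log2 fold change 1.89 ± 0.29, edgeR adjusted p = 2.15e-05). With library totals alone the list held 10 higher members and 1 lower.

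Of 38 tested chloroplast genes for light harvesting and electron transport 10 were higher (26.3%, near the 21.5% of all genes tested) and 3 lower, with a median of 0.32. PSBO2, of the oxygen-evolving complex of photosystem II, had 3630.3, 3158 and 2981 CPM in CAM, against 1269, 914 and 752 CPM in reC3 (log2 fold change 1.73 ± 0.30, edgeR adjusted p = 8.71e-05). PSBP1 of the same complex had 3726, 3157 and 3119.9 CPM in CAM, against 1318, 734 and 556 CPM in reC3 (log2 fold change 1.94 ± 0.42, edgeR adjusted p = 7.44e-04). PETC, the Rieske protein of the cytochrome b6f complex, had 3184 ± 577 CPM in drought and 1198 ± 153 CPM in re-watered leaves (log2 fold change 1.41 ± 0.23, edgeR adjusted p = 3.56e-05). Drought leaves were the higher group for all 3. Without reC3 replicate 3 the count of higher members was 6. The count of lower members was 1 without CAM replicate 1, CAM replicate 2 or reC3 replicate 1, and the fit of the 6 libraries alone gave 6 lower members.

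The Calvin-Benson cycle, which fixes the carbon set free from malate by day, had 9 of 18 tested genes higher and 0 lower, with a median of 0.80. Its 0 on the lower side was the same at an unadjusted p under 0.05 in edgeR and in DESeq2. With library totals alone 9 members were higher and 1 lower, and 6 were higher without CAM replicate 1 or reC3 replicate 2. Rubisco activase (RCA), which keeps Rubisco open for its substrate, had 9865, 7459 and 6390.5 CPM in the CAM libraries, against 2399, 1543 and 1637 CPM in the reC3 libraries (log2 fold change 2.09 ± 0.32, edgeR adjusted p = 1.81e-05). The plastid triose phosphate isomerase PDTPI had 669.97, 727 and 566 CPM in CAM, against 174, 121 and 101 CPM in reC3 (log2 fold change 2.31 ± 0.36, edgeR adjusted p = 2.45e-05). All drought leaves exceeded all re-watered leaves for RCA and PDTPI. The plastid aldolase FBA1 was at 5748 ± 1429.6 CPM in drought and 1842 ± 315 CPM in re-watered leaves, and FBA3 of the same kind was at 404 ± 109 CPM in drought and 213 ± 24.4 CPM in re-watered leaves (log2 fold changes 1.64 ± 0.26 and 0.93 ± 0.21, edgeR adjusted p = 2.79e-05 and 9.79e-04). The Rubisco small subunit identifier RBCS1A, a member of this list, did not pass (log2 fold change 0.90 ± 0.39, edgeR adjusted p = 0.0666).

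Photorespiration, which recycles the product of Rubisco's reaction with oxygen, had 9 of 20 tested genes higher (45%) and 3 lower (15%), with a median of 0.45. The shares over all genes tested were 21.5% and 23.9%. AGT1, the peroxisomal serine-glyoxylate aminotransferase, had 1257, 1031 and 1049 CPM in CAM, against 329.5, 178 and 249 CPM in reC3 (log2 fold change 2.14 ± 0.27, edgeR adjusted p = 1.61e-06). HPR1, hydroxypyruvate reductase of the peroxisome, had 1348 ± 215 CPM in drought and 649 ± 92 CPM in re-watered leaves (log2 fold change 1.05 ± 0.21, edgeR adjusted p = 2.93e-04). BOU, a mitochondrial carrier needed for photorespiration in Arabidopsis, had 7.45, 5.35 and 10.2 CPM in CAM, against 152, 139 and 136 CPM in reC3 (log2 fold change -4.22 ± 0.46, edgeR adjusted p = 3.69e-07). Its 3 drought leaves were far below the 3 re-watered leaves. Catalase CAT3 was lower, at 1014 ± 199 CPM in drought and 2775 ± 177 CPM in re-watered leaves (log2 fold change -1.45 ± 0.29, edgeR adjusted p = 2.87e-04). The number of higher members was 3 without CAM replicate 1 or reC3 replicate 2 and 4 without reC3 replicate 3.

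Nitrogen genes had 3 of 11 tested higher (27.3%) and 3 lower (27.3%), near the 21.5% and 23.9% of all genes tested. The nitrate transporter NRT1.5, which loads the xylem in Arabidopsis roots, had 73.7, 113 and 112 CPM in CAM, against 9.14, 10.2 and 16.5 CPM in reC3 (log2 fold change 3.07 ± 0.59, edgeR adjusted p = 3.31e-04). NRT1.1, a nitrate transporter and sensor, was lower at 4.15 ± 1.92 CPM in drought and 16.4 ± 1.11 CPM in re-watered leaves, and nitrite reductase NIR1 was higher at 300.1 ± 111 CPM in drought and 111 ± 48 CPM in re-watered leaves (log2 fold changes -1.98 ± 0.26 and 1.43 ± 0.39, edgeR adjusted p = 3.31e-06 and 0.00519). GDH2, a glutamate dehydrogenase, was at 12.2 ± 0.304 CPM in drought and 18.1 ± 0.478 CPM in re-watered leaves (log2 fold change -0.57 ± 0.17, edgeR adjusted p = 0.00885). Of 10 tested genes that respond to sugar starvation in Arabidopsis, 7 were higher and 1 lower, with a median of 0.77. MCCA and MCCB, the subunits of methylcrotonyl-CoA carboxylase in leucine breakdown, had log2 fold changes of 1.18 ± 0.26 and 1.7 ± 0.23, and IVD, the dehydrogenase before them in that path, had 1.05 ± 0.12 (edgeR adjusted p = 8.47e-04, 5.45e-06 and 7.30e-07). SEN1, a dark-induced gene, had 8.04 ± 1.14 CPM in drought and 1.28 ± 0.307 CPM in re-watered leaves (log2 fold change 2.65 ± 0.43, edgeR adjusted p = 4.09e-05).

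Autophagy genes gave no call. Of 12 tested, 0 were higher and 0 lower (edgeR), the median was 0.05, and 1 member, on the higher side, had an unadjusted p under 0.05. DESeq2 also called 0 in both directions, and edgeR called 1 member higher in the 6 libraries alone. The member nearest the threshold, ATG8F, had 176 ± 20.9 CPM in drought and 128 ± 20.4 CPM in re-watered leaves (log2 fold change 0.46 ± 0.21, edgeR adjusted p = 0.0797). Chlorophyll breakdown and senescence had 3 of 10 higher (30%) and 2 lower (20%), beside 21.5% and 23.9% of all genes tested. The catabolite reductase RCCR had 43.3, 36.1 and 16.9 CPM in CAM, against 6.86, 5.21 and 4.09 CPM in reC3 (log2 fold change 2.56 ± 0.65, edgeR adjusted p = 0.00355). PPH, the pheophytinase that acts earlier in the path, had 30.4, 34.6 and 57.6 CPM in CAM, against 113, 127 and 98.2 CPM in reC3 (log2 fold change -1.46 ± 0.32, edgeR adjusted p = 7.73e-04). RCCR was above and PPH below the re-watered range in all 3 drought leaves. HCAR, of chlorophyll b conversion, was at 127 ± 9.78 CPM in drought and 86.8 ± 3.46 CPM in re-watered leaves (log2 fold change 0.55 ± 0.13, edgeR adjusted p = 0.00118) and lost its call with library totals alone.

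In the list of heat shock proteins and chaperones, 0 of 23 tested genes were higher and 12 lower in drought leaves, with a median of -1.10, and 2 were higher without CAM replicate 3 or reC3 replicate 3. J8, the chloroplast DnaJ protein with the large rise above, is not in the list. The endoplasmic reticulum chaperones BIP1 and BIP2, which fold secreted proteins, fell furthest among abundant members. BIP2 had 38.9, 24.2 and 64.4 CPM in the CAM libraries, against 676, 556 and 478 CPM in the reC3 libraries (log2 fold change -3.75 ± 0.34, edgeR adjusted p = 2.98e-08). BIP1 had 30.8, 22.5 and 53.3 CPM in CAM, against 503, 419 and 372 CPM in reC3 (log2 fold change -3.6 ± 0.32, edgeR adjusted p = 2.43e-08). Both identifiers kept a ratio of 1.08 to 1.34 over the 6 libraries, with all drought leaves low. PDIL1-1, a protein disulfide isomerase of the same compartment, had 148, 134 and 214 CPM in CAM, against 908, 775 and 705 CPM in reC3 (log2 fold change -2.27 ± 0.19, edgeR adjusted p = 1.14e-08). In the cytosol, HSP101, which resolves protein aggregates after heat, had 2.53, 3.45 and 6.58 CPM in CAM, against 24.9, 31.8 and 33 CPM in reC3 (log2 fold change -2.84 ± 0.33, edgeR adjusted p = 6.43e-07). HOP3, a co-chaperone between HSP70 and HSP90, had 38.3 ± 12.6 CPM in drought and 129.97 ± 9.99 CPM in re-watered leaves (log2 fold change -1.76 ± 0.20, edgeR adjusted p = 4.23e-07). At an unadjusted p under 0.05 edgeR had 1 chaperone on the higher side, and DESeq2 called 1 higher and 12 lower.

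**Figure D3:**
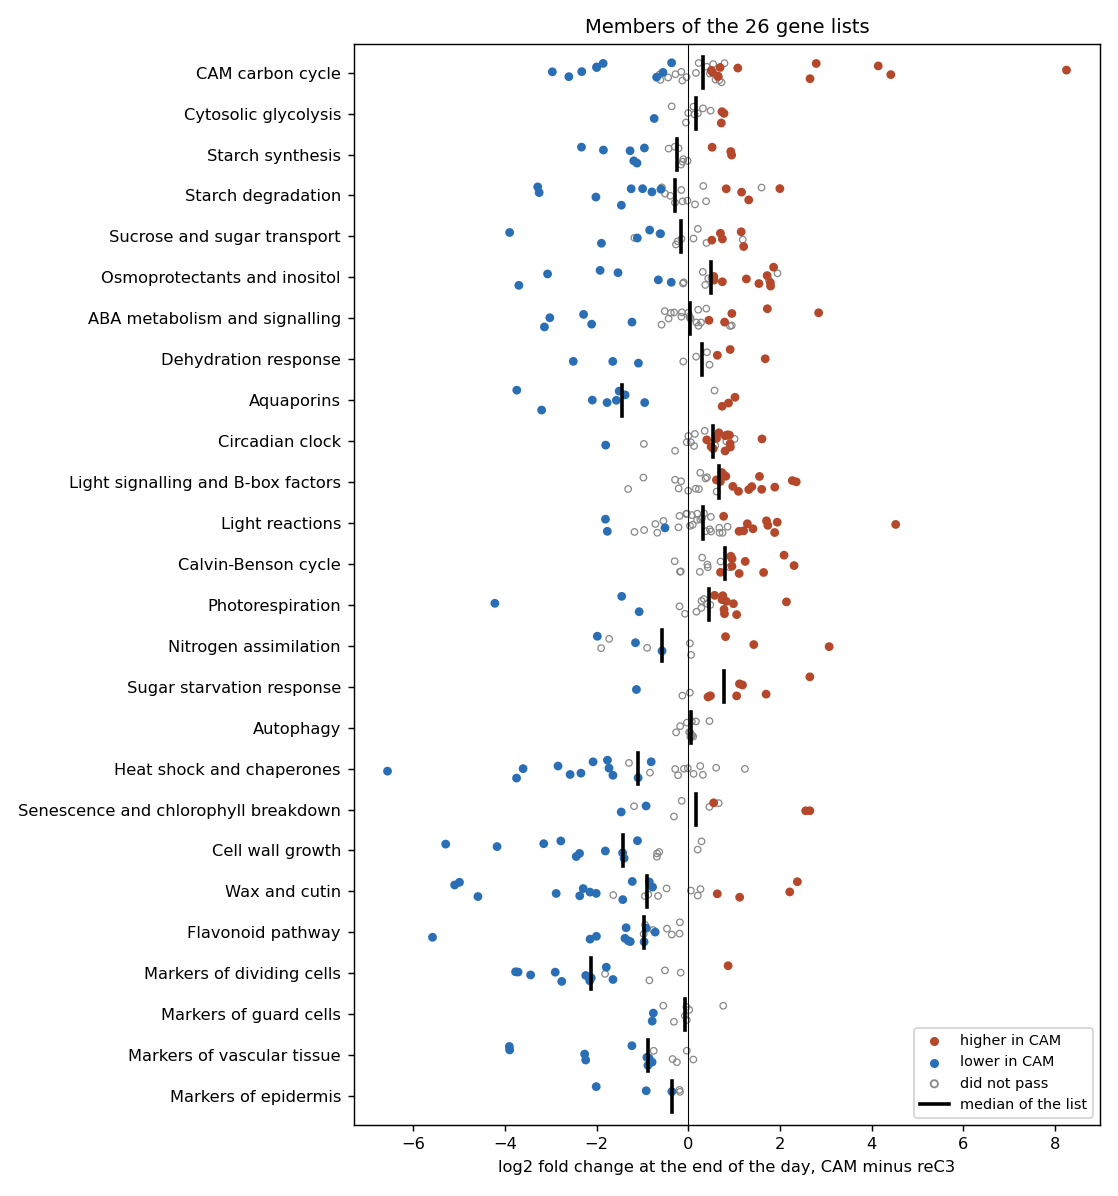
Each point is a tested gene of 1 of the 26 lists, with its log2 fold change of CAM over reC3 at the end of the day on the x axis, coloured where it passed the edgeR test; bars mark list medians. Light signalling (median 0.66) and the Calvin-Benson cycle (0.80) lie to the right with no member called lower, and cell wall growth (-1.43) and flavonoids (-0.96) lie to the left with no member called higher.

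Genes of growth and of the leaf surface were mostly lower where they changed. For cell wall growth, flavonoids, vascular and epidermis markers and the genes matched by the word germin, the count of 0 higher members below was also 0 at an unadjusted p under 0.05 in edgeR and in DESeq2. Of 15 tested genes of cell wall growth 0 were higher and 10 lower, with a median of -1.43. CESA5, a cellulose synthase of the primary wall, had 62.8, 73.9 and 80.5 CPM in CAM, against 280.5, 237 and 244 CPM in reC3 (log2 fold change -1.81 ± 0.19, edgeR adjusted p = 2.24e-07). CSI1, which ties cellulose synthase to microtubules, was at 85.3 ± 15.2 CPM in drought and 225 ± 35.5 CPM in re-watered leaves, COB, needed for oriented cellulose deposition, at 23.644 ± 1.8 CPM in drought and 63.8 ± 0.888 CPM in re-watered leaves, and GAUT1, a pectin-building enzyme, at 25.6 ± 2.85 CPM in drought and 55.2 ± 5.26 CPM in re-watered leaves. Their log2 fold changes were -1.4 ± 0.18, -1.43 ± 0.15 and -1.11 ± 0.14 (edgeR adjusted p = 3.09e-06, 1.98e-07 and 2.14e-06).

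The cuticle is built of wax and cutin. Of 24 tested genes of wax and cutin 4 were higher (16.7%) and 12 lower (50%), with a median of -0.91. The shares over all genes tested were 21.5% and 23.9%. CER3, of alkane wax synthesis, had 102, 90.4 and 71.7 CPM in CAM, against 12.5, 18.5 and 19.9 CPM in reC3 (log2 fold change 2.38 ± 0.26, edgeR adjusted p = 2.93e-07). Named cutin genes fell. CYP86A4, a fatty acid hydroxylase, had 1.9, 3.45 and 14 CPM in CAM, against 155, 185 and 119.7 CPM in reC3 (log2 fold change -4.59 ± 0.45, edgeR adjusted p = 1.48e-07), and -5.82 without CAM replicate 3. GPAT6, an acyltransferase of cutin monomers, had 52.1, 37.4 and 75.8 CPM in CAM, against 321, 283 and 249 CPM in reC3 (log2 fold change -2.37 ± 0.26, edgeR adjusted p = 3.26e-07). SHN1, a transcription factor of cuticle genes, and LACS2, a long-chain acyl-CoA synthetase, had log2 fold changes of -2.29 ± 0.22 and -2.01 ± 0.24 (edgeR adjusted p = 3.89e-08 and 8.50e-07). Re-watered leaves were the higher group in each cutin case.

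In the flavonoid list 0 of 17 tested genes were higher and 10 lower, with a median of -0.96. DFR, at the branch to anthocyanins, had 0.758, 1.55 and 0.134 CPM in CAM, against 11.7, 15.2 and 97.3 CPM in reC3 (log2 fold change -5.58 ± 1.16, edgeR adjusted p = 6.75e-04), -3.98 without reC3 replicate 3 and -6.43 without CAM replicate 2. Entry enzymes C4H and 4CL1 had log2 fold changes of -1.31 ± 0.29 and -2.14 ± 0.31, and TTG1, a WD40 regulator, had -0.72 ± 0.16 (edgeR adjusted p = 8.96e-04, 8.37e-06 and 7.71e-04). The count of lower members was 5 without CAM replicate 1 or reC3 replicate 3.

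Markers of other cell types were also counted, beside 21.5% of all genes tested that were higher and 23.9% that were lower. Of 15 tested markers of dividing cells 1 was higher and 10 were lower (6 lower without CAM replicate 1), with a median of -2.12 and a summed level of 64.1 to 76.9 CPM in CAM against 108 to 149 CPM in reC3. CYCB1;1, a mitotic cyclin, had 0.337 ± 0.146 CPM in drought and 1.54 ± 0.543 CPM in re-watered leaves, CYCB1;4 had 0.248 ± 0.111 CPM in drought and 3.45 ± 1.26 CPM in re-watered leaves and CYCD3;1, a G1 cyclin, had 0.59 ± 0.584 CPM in drought and 2.86 ± 0.37 CPM in re-watered leaves (log2 fold changes -2.15 ± 0.54, -3.71 ± 0.44 and -2.24 ± 0.44, edgeR adjusted p = 0.00275, 7.10e-07 and 2.98e-04). CYCD3;1 was at -3.40 without CAM replicate 1. CDKB1;2, a mitotic kinase, was the 1 higher marker, with 0.87 ± 0.25 (edgeR adjusted p = 0.00659). Of 5 tested epidermis markers 0 were higher and 3 lower, with a summed level of 363 to 413 CPM in CAM against 541 to 635 CPM in reC3 and PDF1 at 0 in all 6 libraries. GL2, an epidermal homeobox factor, had a log2 fold change of -0.92 ± 0.20 and ANL2, of the same class, -0.36 ± 0.11 (edgeR adjusted p = 7.96e-04 and 0.0106), and ANL2 lost its call without CAM replicate 3. LACS2 is in both the epidermis and the cuticle list. Of 9 tested guard cell markers 0 were higher and 2 lower (22.2%), with a median of -0.07 (1 higher at an unadjusted p under 0.05 in edgeR, 0 in DESeq2), with a summed level of 36.8 to 44.6 CPM in CAM against 51.9 to 63.3 CPM in reC3 and EPF2 at 0 in all 6 libraries. The guard cell median lay between -0.43 and -0.10 in the fits that left out a library and was -0.30 with library totals alone. Without reC3 replicate 1, 1 guard cell marker was higher and 1 lower. KAT2, a guard cell potassium channel, and HT1, a kinase of the stomatal CO2 response, had log2 fold changes of -0.79 ± 0.22 and -0.76 ± 0.19 (edgeR adjusted p = 0.00621 and 0.00296), and KAT2 lost its call without reC3 replicate 1. In the vascular list the cellulose synthases of the secondary wall CESA4 and CESA7 and the lignin laccase LAC4 had log2 fold changes of -1.23 ± 0.17, -0.90 ± 0.18 and -3.9 ± 0.62 (edgeR adjusted p = 5.85e-06, 2.74e-04 and 2.96e-05), with LAC4 at -4.76 without CAM replicate 2. The part of cell type shares in the growth, cuticle and flavonoid results was not tested.

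Families were also counted by the words of the deposited annotation. Of 278 tested genes annotated as ribosomal protein 103 were higher (37.1%, beside 21.5% of all genes tested) and 1 lower, with a median of 0.49. The count of higher members was 61 without CAM replicate 1, 67 without reC3 replicate 2 and 57 with library totals alone, where 4 were lower. Pentatricopeptide genes, which process organelle RNA, had 49 of 193 higher (25.4%, near the 21.5% of all genes) and 1 lower, with a median of 0.39, and 31 higher without reC3 replicate 3, 32 without CAM replicate 2 and 25 with library totals alone. Of 31 tested genes with the word proteasome in their annotation 4 were higher and 13 lower, with a median of -0.29. The word also takes in subunits of the COP9 signalosome and other proteins with a PCI domain, and FUS12 and AT3G02200 among the 4 higher genes are of this kind. They had 7 lower without reC3 replicate 3, and 2 higher and 20 lower with library totals alone. Families of the cell surface held mostly lower members: genes with germin in their annotation 0 higher and 9 lower of 10, GDSL lipases 3 and 26 of 39, expansins 1 and 8 of 15, and the peroxidase superfamily 1 and 22 of 32, with medians of -3.14, -1.92, -1.30 and -2.44. The word germin also matched NPGR1 and NPGR2, which are named from pollen germination and are no germins, and NPGR1 is 1 of the 9 lower genes. WRKY and NAC transcription factors were also taken by annotation words alone. WRKY genes had 1 of 30 higher and 11 lower and NAC genes 1 of 29 higher and 13 lower, with medians of -0.72 and -0.55. The NAC count was 7 lower without CAM replicate 2 or reC3 replicate 3 and 8 without reC3 replicate 2. Of all genes tested 23.9% were lower.

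The difference between modes at the end of the day was then tested against the mean of the differences at the other 3 times. This difference of differences was above 0 for 1646 genes (11.7%) and below 0 for 1702 (12.1%). The libraries of the middle of the day and the middle of the night came from an earlier set by the same laboratory per the study's text, and those of the end of the day and the end of the night were made later. Each difference between modes stays within 1 set of libraries. The test against the end of the night alone, within the later set, called 5090 genes, and that against the mean of the other pair of times called 1496.

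**Figure D4:**
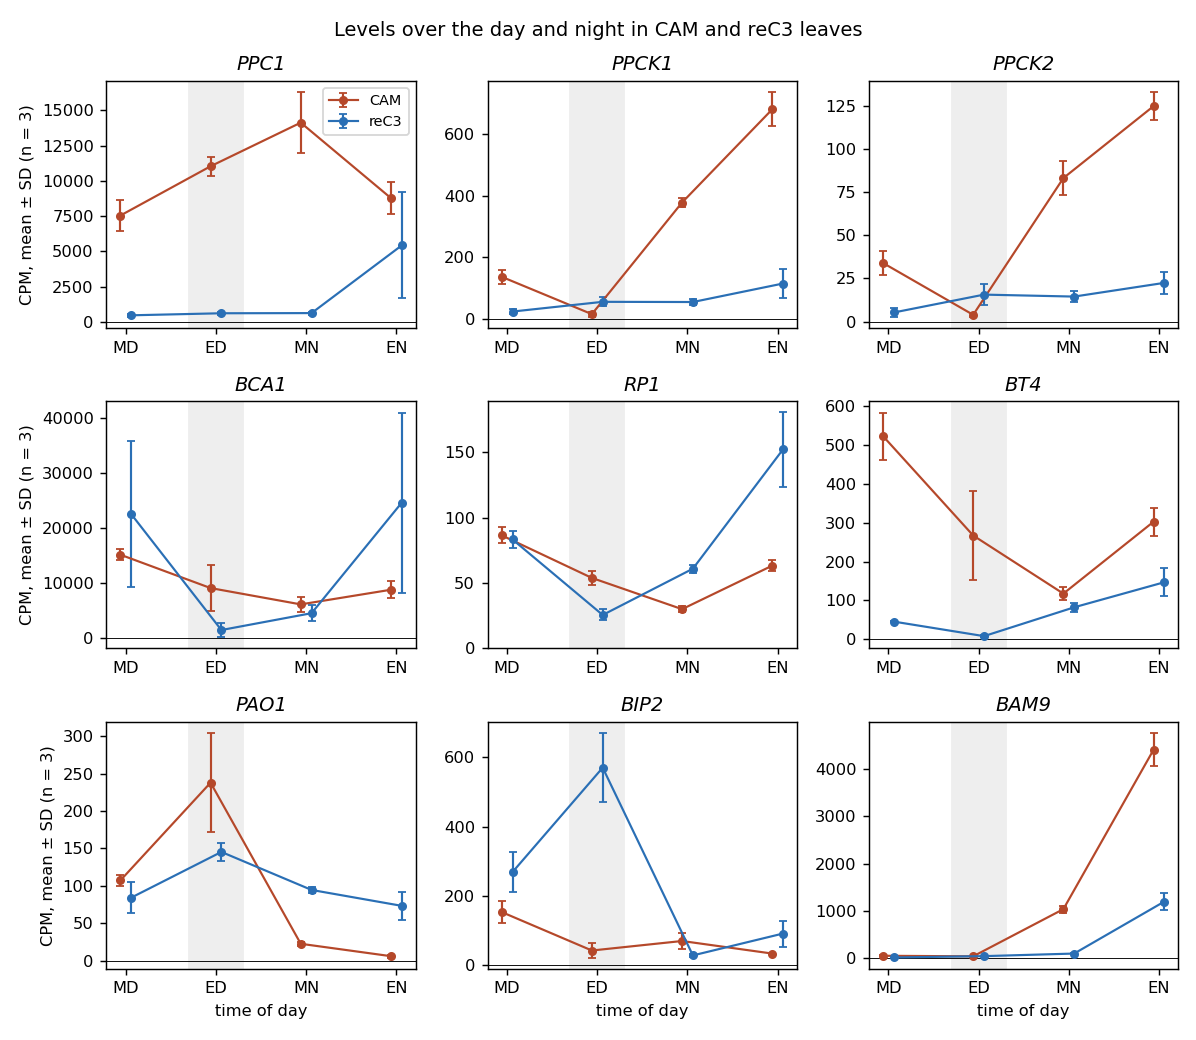
Mean level in CPM (linear axes, bars are SD, n = 3 libraries a point) of 9 genes at the middle of the day (MD), end of the day (ED, shaded), middle of the night (MN) and end of the night (EN) in CAM and reC3 leaves. PPCK1 and PPCK2 lie lower in CAM at ED and higher at the other times, RP1 and PAO1 lie above reC3 at ED and below it in both night samples, and BAM9 overlaps between the modes at ED and lies higher in CAM at MN and EN.

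Genes above their other times at the end of the day included regulators of PPDK. RP1 had a difference of differences of 1.82 ± 0.17 (2.35 against the end of the night alone), and RP2 had 1.86 ± 0.20 (2.42). BT4 had 3.37 ± 0.32 (4.02). PAO1, a polyamine oxidase, had 2.49 ± 0.25 (4.34): it was at 238 ± 66.4 CPM in drought and 145 ± 12.3 CPM in re-watered leaves at the end of the day, and at 5.85 ± 1.85 CPM in drought and 73.2 ± 18.9 CPM in re-watered leaves at the end of the night. Its end-of-day call was lost without CAM replicate 2 and with library totals alone. PIN4, an auxin efflux carrier, had 2.25 ± 0.25 (2.43) and was among 9 genes higher in CAM at the end of the day and lower at all 3 other times. At the end of the day it was at 22.3 ± 4.41 CPM in drought and 13.6 ± 1.15 CPM in re-watered leaves (log2 fold change 0.71 ± 0.21, edgeR adjusted p = 0.0101), a call lost without CAM replicate 2 and with library totals alone. AT3G04300, a cupin-fold protein, had 1.83 ± 0.19 (2.68).

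Genes below their other times included both PEPC kinases. PPCK2 had a difference of differences of -4.56 ± 0.36 (-4.47 against the end of the night alone). It was at 125 ± 8.05 CPM in drought and 22.5 ± 6.57 CPM in re-watered leaves at the end of the night, the reverse of the order at the end of the day. PPCK1, chosen after its values were seen for this contrast, was at 137 ± 21.8 CPM in drought and 23.7 ± 8.89 CPM in re-watered leaves at the middle of the day, 378 ± 15.3 CPM in drought and 54.7 ± 9.67 CPM in re-watered leaves at the middle of the night and 681 ± 55.5 CPM in drought and 115 ± 48.4 CPM in re-watered leaves at the end of the night. Both kinases were among 15 genes lower in CAM at the end of the day and higher at all 3 other times. BAM9 had -2.35 ± 0.19 (-2.0), with 1040.1 ± 73.4 CPM in drought and 103 ± 2.6 CPM in re-watered leaves at the middle of the night. ILL6, an auxin and jasmonate conjugate hydrolase of Arabidopsis, had -3.34 ± 0.26 (-2.57). AT1G67480, a kelch-repeat F-box protein, had -4.61 ± 0.28 (-5.0), and AT1G22190, an AP2/ERF transcription factor, had -2.79 ± 0.21 (-2.73). PDIL1-1 had -2.6 ± 0.22 (-2.06). All 12 differences named by this test passed edgeR at an adjusted p of 7.5e-06 or less in the test against the end of the night alone. That test shares its end-of-day and end-of-night libraries with the test that chose the 12, so it is not separate support for them.

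By list, many chloroplast genes were above their other times: 15 of 18 Calvin-Benson genes and 18 of 38 light reaction genes were above and 0 and 1 below. At the end of the night 13 Calvin-Benson genes were lower in CAM, with a median of -1.07, against a median of 0.80 at the end of the day. Light signalling genes had 11 of 26 above and 1 below, photorespiration 9 of 20 and 1, and the clock 7 of 25 and 1. DESeq2 called 0 Calvin-Benson genes below, and edgeR had 1 at an unadjusted p under 0.05. The lists of ABA genes, protective sugars and proline, and chaperones held more genes below than above, as did the WRKY and NAC families. ABA genes had 2 of 28 above and 14 below, protective sugars and proline 0 of 23 above and 11 below, chaperones 0 of 23 above and 9 below, WRKY genes 0 of 30 above and 11 below, and NAC genes 1 of 29 above and 12 below. DESeq2 also called 0 above for protective sugars and proline, chaperones and WRKY genes, and edgeR had 3, 0 and 0 there at an unadjusted p under 0.05. In the ABA list 13 of 28 genes were higher in CAM at the middle of the day, 5 at the end of the day, 17 at the middle of the night and 16 at the end of the night. MIOX1, a myo-inositol oxygenase chosen after its values were seen, was at 1459 ± 318 CPM in drought and 15.8 ± 14.7 CPM in re-watered leaves at the middle of the day and at 3.23 ± 2.04 CPM in drought and 0.868 ± 0.432 CPM in re-watered leaves at the end of the day.

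**Figure D5:**
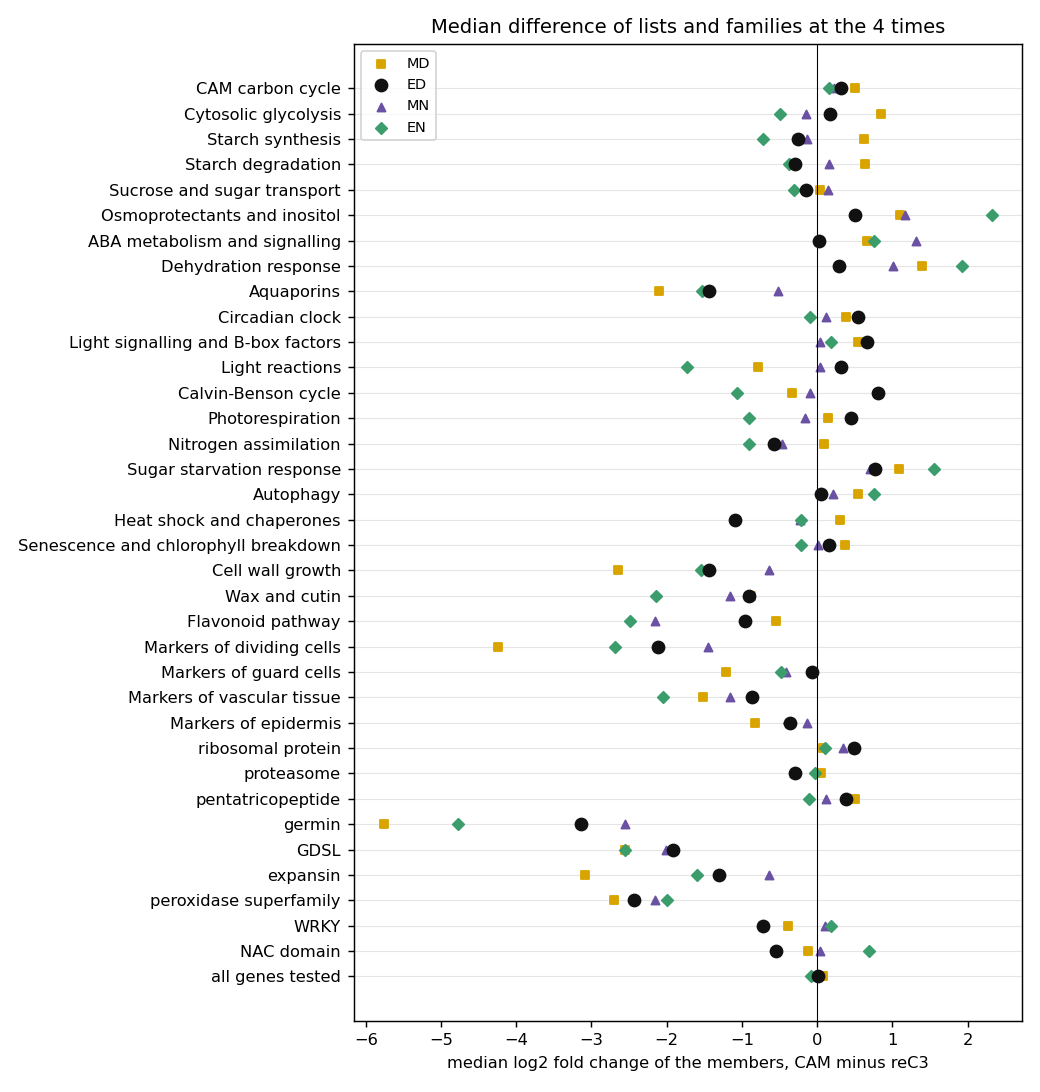
Median log2 fold change of CAM minus reC3 on the x axis for each gene list and annotation family, 1 row each, with 1 symbol for each of the 4 times. At ED (black circles) the chloroplast lists are positive (Calvin-Benson cycle 0.80, light reactions 0.32), while at EN (green diamonds) they are negative (-1.07 and -1.74).

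Calls at the end of the day overlapped those at other times to different extents. The comparisons use separate libraries at each time. Of the 3025 genes higher at the end of the day, 1779 were also higher at the middle of the day (58.8% of the end-of-day list and 55.8% of the midday list), 1301 at the middle of the night (43.0% and 51.2%) and 1223 at the end of the night (40.4% and 36.1%). Of the 3363 lower genes, 2048 were also lower at the middle of the day (60.9% and 68.2%), 1780 at the middle of the night (52.9% and 61.7%) and 1819 at the end of the night (54.1% and 44.2%). Calls in either direction covered 44% of all genes tested at the middle of the day (22.7% higher and 21.3% lower), 38.6% at the middle of the night (18.1% and 20.5%) and 53.3% at the end of the night (24.1% and 29.2%). At the end of the night 505 of the genes higher at the end of the day were lower in CAM, and 388 of the lower genes were higher. No call at any other time was found for 413 of the higher genes and 384 of the lower genes.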

How the data were processed

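Messenger RNA of mature leaves had been sequenced as single-end reads, per the labels' protocols, with a polyA selection kit that does not mark strand. The submitters' processing notes name CASAVA 1.8.2 and TAIR10, an Arabidopsis build; no aligner or counting tool is given in the sources used here. The authors deposited raw counts per Arabidopsis gene identifier, and these counts were the values used. A further 40 value columns were not used here.

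The 6 end-of-day libraries were taken by column label. Counts of all 24 libraries were fitted in edgeR 4.0.16 (R 4.3.3) with 1 mean for each of 8 groups, TMM scaling, the filterByExpr filter and a robust quasi-likelihood test with Benjamini-Hochberg adjustment over 14065 genes; the spread was estimated over all groups together (common BCV, the biological coefficient of variation, 0.196). Standard errors are the fold change divided by the square root of F. The contrast was CAM minus reC3 at the end of the day, and then that difference minus the mean of the 3 other times. Totals of the 6 end-of-day libraries ran from 4310225 to 7069076 counts, and intervals cover counting error only. No pair of libraries of 1 group agreed within sampling noise. The fit was tested on simulated data for both contrasts.

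Genes were named by rule: the 12 largest changes in each direction among called genes whose libraries did not overlap and whose higher group averaged at least 10 CPM, the 6 smallest p in each direction of the second contrast, up to 4 members of each of 26 lists, and all called members of the CAM carbon cycle, starch and clock lists. Of 630 list entries 471 were tested. The members, lists and tests were chosen with earlier results of these data known. Alternatives were DESeq2 1.42.0, RLE scaling, library totals alone, no filter, a stricter threshold, a replicate block, the 6 libraries alone and leaving out each library in turn. No reference genome was used.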

Additional observations from a re-analysis of the deposited data

Results flagged for a closer look

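For 90 named genes the difference between CAM and reC3 leaves at the end of the day was not the same as the mean of the differences at the other 3 times (edgeR adjusted p under 0.05 for the difference of differences, log2 scale). A positive value means that CAM stood higher against reC3 at the end of the day than at the other times. The comparison is between times of day and, for the middle of the day and the middle of the night, between sets of libraries made at different occasions. Of the genes tested, 11.7% were above and 12.1% below. The named genes were chosen by their difference at the end of the day, which is a part of this test, or by this test itself. Their number past the threshold can therefore not be compared with these shares, and it is not separate support for a difference between times.

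Among genes of carboxylation and its control, values were 1.1 for PPC1, 1.21 for PPC2, 3.2 for BCA1, 3.24 for BCA3 and -1.38 for BCA5, and -4.49 for PPCK1, -4.56 for PPCK2, 1.82 for RP1 and 1.86 for RP2. Malate and sugar phosphate carriers and malate dehydrogenases had -3.01 for DIC1, -3.36 for DIC2, -1.91 for GPT1, -2.48 for GPT2, 0.62 for NADP-MDH and -0.63 for c-NAD-MDH1. PEPC and the 2 carbonic anhydrases of large rise were thus above their other times, and the PEPC kinases and the mitochondrial and plastid carriers below. The PEPC values lay close to the threshold, with an edgeR adjusted p just under 0.05 for PPC1 and 0.03 for PPC2. Those of BCA1 and BCA3 lay further from it (edgeR adjusted p = 0.00225 and 0.000917).

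Starch synthesis genes had 1.07 for APS1, 0.84 for APL1, -1.51 for APL2, -1.7 for APL4 and -1.03 for PGI1. Starch breakdown genes had 1.4 for SEX1, 1.23 for DPE1, -1.62 for BAM2, -1.66 for BAM3, -3.38 for BAM5, -3.42 for BAM6, -2.35 for BAM9 and -1.07 for PHS2. Sugar transporters had -0.81 for SWEET11, -1.18 for VGT1 and -2.6 for SUC2, and the trehalose phosphate synthase protein TPS5 had -1.64. Subunits of ADP-glucose pyrophosphorylase lay on both sides.

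Those named genes of the Calvin-Benson cycle and the light reactions that passed this test were above their other times. Calvin-Benson values were 2.55 for RCA, 2.07 for PDTPI, 1.77 for FBA1 and 1.09 for FBA3, and light reaction values were 2.58 for PSBP1, 1.84 for PSBO2 and 1.07 for PETC. Photorespiration genes had 1.79 for AGT1, 0.66 for HPR1 and -2.72 for BOU, with the carrier BOU below. Nitrogen genes had 1.82 for NIR1 and -0.96 for GDH2, and chlorophyll breakdown genes had 2.45 for RCCR, 0.56 for HCAR and -1.24 for PPH. The leucine breakdown gene MCCA had -2.04.

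Clock genes had 1.41 for PRR5, 0.85 for PRR7, 0.86 for CDF2, 1.29 for CDF3, 1.07 for LUX and 0.40 for ZTL, and light signalling genes had 1.73 for BBX20, 1.37 for BBX21, 1.04 for HYH and 0.51 for PHYA. All 10 were above their other times, but only named genes that passed the test are given here. In the whole lists 7 of 25 clock genes were above and 1 below, and 11 of 26 light signalling genes were above and 1 below.

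Water relations genes named by rule had -3.47 for EDL3 and -0.55 for PYL9 in the ABA list and -0.79 for PIP1;2, -0.75 for PIP1;3, -1.09 for PIP1;5 and -1.48 for TIP4;1 among aquaporins. In the whole aquaporin list 3 genes were above and 4 below, with a median of 0.34, and PIP2;2 was above at 2.94. Endoplasmic reticulum chaperones had -3.26 for BIP1, -3.43 for BIP2 and -2.6 for PDIL1-1.

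Surface and flavonoid genes had 1.26 for CER3, 1.64 for LACS2, 1.43 for C4H and -0.83 for TTG1. Cell type markers had 1.13 for CDKB1;2, -1.59 for CYCB1;4, -0.99 for GL2, -1.41 for GORK, 0.85 for CESA4 and 1.12 for CESA7. Of the largest rises and falls at the end of the day, values were 3.37 for BT4, 2.08 for BT2, 1.19 for J8, 2.17 for GEX3, 5.08 for AT3G06070, -4.06 for BGLU2 and -2.14 for PHT4;2. The remaining genes named by the test had 2.49 for PAO1, 2.25 for PIN4, 1.83 for AT3G04300, -4.61 for AT1G67480, -2.79 for AT1G22190 and -3.34 for ILL6.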

How the results depend on the processing

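The count of genes higher in CAM at the end of the day was 1766 with library totals in place of TMM, where 4098 were lower, and 1105 at an adjusted p under 0.01 with at least a 2-fold change, where 1733 were lower. Leaving out 1 end-of-day library gave 2439 to 2810 higher and 2794 to 3128 lower genes. DESeq2 gave 3014 higher and 3423 lower, RLE scaling 3022 and 3367, no filter 2982 and 3359, and the 6 libraries alone 3140 and 3579. For the difference from the other times, 5090 genes passed against the end of the night alone, 1496 against the mean of the middle of the day and the middle of the night, 1113 at the stricter threshold, and 2330 to 3998 when 1 of the 24 libraries was left out. The fit with the replicate block gave 3064 higher, 3364 lower and 3406 for the difference from the other times. Correlations of same-numbered libraries' deviations were -0.11, 0.02 and -0.002, and those of differently numbered end-of-day libraries ran from -0.11 to 0.11. As the deviations are from means of only 3 libraries, these values cannot decide whether the numbers pair the end-of-day libraries. Of 163 named genes past the threshold, 16 lost the call without some 1 library and 17 with library totals alone. Of 90 named genes whose difference from the other times passed, 76 passed against the end of the night alone (2 of the 90 changed sign there) and 60 against the mean of the middle of the day and the middle of the night (2 changed sign there too). Of the genes that were not called, ATG1A changed sign with library totals alone, at -0.055, and ATG8H without reC3_ED replicate 2, where it was at 0.016 in a range of -0.60 to 0.016 over the fits that left out a library. For moved counts and calls the cause was not tested, apart from the stricter threshold, which passes fewer genes by construction. With 3 libraries a group, genes with a few counts, such as TDT, have limits in place of fold changes.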

Other observations

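Groups of genes counted by annotation words that were chosen after their values were seen gave further counts at the end of the day. Of 10 tested ribosomal proteins with 30S, 50S, chloroplast or plastid in their annotation, words of organelle ribosomes, 6 were higher (60%) and 0 lower (edgeR, 0 lower also at an unadjusted p under 0.05 and in DESeq2), with a median of 1.13. Of 75 tested ribosomal proteins with annotation words of the 40S or 60S subunits, 28 were higher (37.3%) and 1 lower, with a median of 0.49. Of 13 tested genes for protein disulfide isomerases, calnexins and calreticulins, which help to fold proteins in the endoplasmic reticulum, 0 were higher and 7 lower (53.8%; edgeR, 0 higher also at an unadjusted p under 0.05 and in DESeq2), with a median of -0.54. Of all genes tested 21.5% were higher and 23.9% lower. Both ribosomal groups are within the ribosomal protein family and are not further evidence beside it.

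Among families counted by annotation, expansins and peroxidases each held 1 member called higher beside many called lower. A fold change above 0, called or not, was found for 4 of 15 expansins and 2 of 32 peroxidases. EXLB1, an expansin-like protein, was at 7.33 CPM in drought and 0.685 CPM in re-watered leaves (log2 fold change 3.52), where 8 expansins were lower. The peroxidase AT1G71695 was at 89.6 CPM in drought and 5.26 CPM in re-watered leaves (log2 fold change 4.07), where 22 peroxidases were lower.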
